A study of Mus musculus with 19 samples.

Results

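The subunits of 3 families of ligand-gated ion channels, the GABA-A, glycine and nicotinic acetylcholine receptors, were examined in the transcriptomes of ipsilateral and contralateral retinal ganglion cells (iRGCs and cRGCs) of the mouse embryo. The members were chosen by name. They are all protein-coding genes whose symbols start with Gabra, Gabrb, Gabrd, Gabre, Gabrg, Gabrp, Gabrq or Gabrr (GABA-A), Glra or Glrb (glycine), or Chrna, Chrnb, Chrnd, Chrne or Chrng (nicotinic). The rule gave 40 of the 47069 genes in the count tables, with 19 GABA-A, 5 glycine and 16 nicotinic subunits.

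RGCs of the ventrotemporal (VT) retina send their axons to the same side of the brain, and the others cross the midline at the optic chiasm. Both populations came from E16.5 retinas (E, embryonic day) of C57/DBA F1 embryos, males and females pooled, and both carried a Cre-dependent Sun1-GFP cassette under the CAG promoter, which tags the nuclear envelope. iRGCs were the GFP-positive cells sorted from whole Slc6a4-Cre retinas (Slc6a4 encodes the serotonin transporter, also called Sert), and cRGCs were those sorted from Pou4f2-Cre retinas (Pou4f2 is also called Brn3b) after the VT region had been dissected away. The labels give the genotype of these samples as WT and name no treatment. The tag marks every cell in which Cre was once active, and its descendants. Each population had 3 polyA RNA-seq libraries, with 28193178 to 33638083 reads counted on genes per library. The driver, the dissected region and the population cannot be told apart in this design. Nothing in the sources used here ties a library to its own set of embryos, so p-values measure the spread between libraries, which may be partly technical.

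Both labelled populations were checked against markers. Pou4f2 transcripts were at 74.7, 133 and 98.3 CPM (counts scaled by library size) in iRGC replicates 1 to 3 and at 191, 196 and 293 CPM in the cRGC replicates. Slc6a4 transcripts were at 2.06, 33.4 and 116 CPM in iRGCs and at 48.1, 35.4 and 30.5 CPM in cRGCs, so the driver gene of the iRGC line did not separate the populations (adjusted p-value = 0.768, edgeR), and iRGC replicate 1 held the least of it. This gene therefore gave no check of the labels, on which the direction of every difference rests, whereas Pou4f2, the driver gene of the cRGC line, was higher in the libraries labelled cRGC, without overlap (log2 fold change −1.15, adjusted p-value = 0.00424). Of 12 tested RGC markers, 9 were lower in the libraries labelled iRGC, 1 was higher and 2 were not called. All 14 general neuronal genes, such as the growth cone protein gene Gap43, were lower there, and all 16 retinal progenitor genes, such as the G1 cyclin gene Ccnd1, were higher. The geometric mean of the neuronal genes was 310, 381 and 582 CPM in iRGC replicates 1 to 3 and 1447, 1362 and 1463 CPM in the cRGC replicates, whereas that of the progenitor genes was 317, 292 and 255 CPM against 32.3, 79.2 and 51.4 CPM. In such bulk samples, fewer cells of a type and less RNA per cell cannot be told apart, and the part of these markers in the results on the receptors was not tested.

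GABA-A receptors are pentameric chloride channels, in most neurons built from alpha and beta subunits with a gamma subunit. Glycine receptors are chloride channels of alpha subunits with the beta subunit Glrb, which anchors them to gephyrin at synapses. Nicotinic receptors are cation channels opened by acetylcholine, and in RGCs they carry the cholinergic retinal waves of the time around birth. In immature neurons, GABA and glycine often depolarize the cell, because the chloride importer NKCC1 (Slc12a2) prevails over the exporter KCC2 (Slc12a5).

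The 3 families were less abundant in the libraries of iRGCs when these were scaled to all genes (TMM). Member genes took 0.0549% to 0.0733% of the counted reads in the iRGC libraries and 0.131% to 0.139% in the cRGC libraries, without overlap. Levels summed over a family are given in CPM per kilobase of exon, since only values per length can be compared between genes. The summed level of GABA-A subunits was 30.6 ± 9.13 in iRGCs and 78.5 ± 2.77 in cRGCs (SD, n = 3 each), that of glycine receptor subunits was 5.27 ± 1.12 and 14.2 ± 0.939, and that of nicotinic subunits was 77.2 ± 7.62 and 164 ± 13.6. In each family, every iRGC library was below every cRGC library (exact permutation test, two-sided, p = 0.1 before and after adjustment over the 3 sums, the smallest value that 3 libraries against 3 can give). When the libraries were scaled to the general neuronal genes above (the neuronal scaling), the log2 differences of the 3 sums were 0.39 (GABA-A), 0.36 (glycine) and 0.73 (nicotinic). This scaling moved the median log2 fold change of all tested genes to 1.83, so the sums lay below that median.

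Of the 40 members, 27 had enough counts to be tested, and 13 did not. In the fit across all 15941 tested genes, at an adjusted p-value under 0.1, 14 members were lower in iRGCs, 2 were higher and 11 were not called. Among all tested genes, 23.1% were called lower and 23.3% higher, or 46.4% in either direction. Every one of the 16 called members changed by more than 1 on the log2 scale, a size at which 11.0% of all tested genes were called lower and 12.1% higher. In 15 tested members all iRGC libraries were below all cRGC libraries, against 28.2% of all tested genes, and in 2 they were all above, against 27.1%. The median log2 fold change (iRGC over cRGC) was −1.28 over the 27 tested members, −1.77 over the 14 neuronal genes and −0.0031 over all tested genes. The members that passed the filter on low counts include genes that passed it through cRGCs alone. This median and the count of members without overlap therefore describe those that passed, and not the families as a whole. Lower levels were called for 8 of 16 tested GABA-A subunits, 1 of 2 glycine receptor subunits and 5 of 9 nicotinic subunits, but under the neuronal scaling 1 member (Chrnb3) was called lower and 8 were called higher. Under that scaling, 0.414% of all tested genes were called lower and 78.0% higher. The plot of fold changes sets the members beside the medians of the neuronal and progenitor lists.

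**Figure D1:**
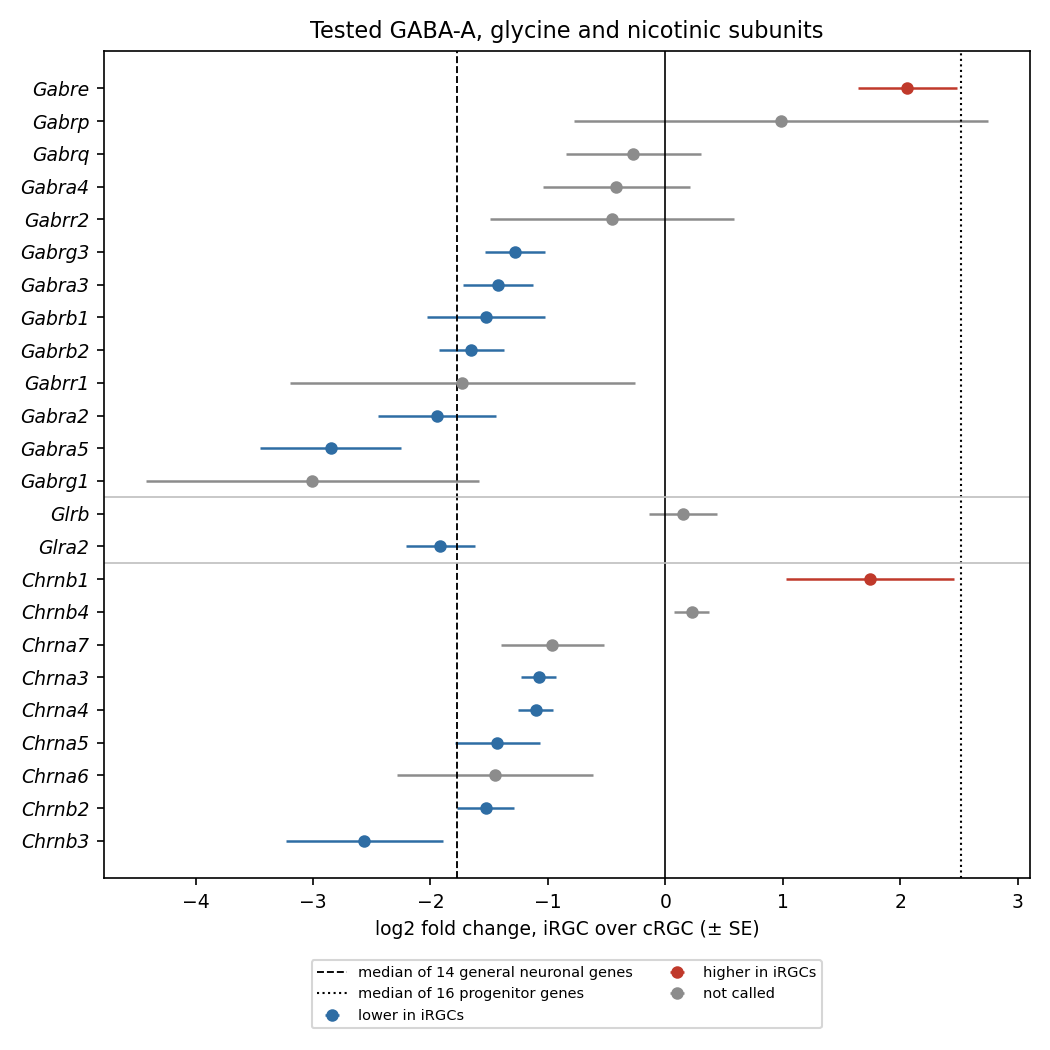
Log2 fold change of iRGCs over cRGCs (horizontal axis, with SE) for 24 of the 27 tested subunit genes, grouped by family from top to bottom (GABA-A, glycine, nicotinic). With TMM scaling, blue points are lower in iRGCs, red points higher and grey points not called at an adjusted p-value under 0.1, whereas with the neuronal scaling 1 member is lower and 8 are higher (78.0% of all tested genes are higher there); the dashed and dotted lines mark the medians of 14 general neuronal genes (−1.77) and 16 retinal progenitor genes (2.51).

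Among the alpha subunits of the GABA-A receptor, which shape the GABA binding site and the receptor's pharmacology, Gabra3 was the most abundant in both populations. Its level was 3.61, 5.68 and 9.27 CPM per kilobase in iRGC replicates 1 to 3 and 15.3, 16.2 and 18.3 in the cRGC replicates. The populations did not overlap, and iRGC replicate 1 was the lowest. The difference was −1.42 ± 0.29 on the log2 scale (log2 fold change ± SE, with an adjusted p-value of 0.00467 in edgeR). Gabra2, a subunit typical of embryonic brain, was at 0.463, 1.24 and 2.51 CPM per kilobase in iRGCs and at 6.61, 5.66 and 3.92 in cRGCs, again without overlap (log2 fold change −1.94 ± 0.50, adjusted p-value = 0.0141, and −2.67 without iRGC replicate 3). Gabra5, known for extrasynaptic receptors, had the largest difference of the called GABA-A subunits. It was at 0.130, 0.229 and 0.467 CPM per kilobase in iRGCs and at 1.42, 2.46 and 2.09 in cRGCs, a log2 fold change of −2.85 ± 0.60 (adjusted p-value = 0.00511). It was −3.47 without iRGC replicate 3, and with the neuronal scaling it was −1.20 and not called (adjusted p-value = 0.176). Gabra4 had 33 to 107 counts per library, with overlap, and was not called. Gabra6, best known from cerebellar granule cells, had no count in any library.

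The beta subunits form the other face of the GABA binding site. Gabrb2 was at 0.647, 0.714 and 1.12 CPM per kilobase in iRGCs and 2.44, 2.88 and 2.47 in cRGCs, without overlap (log2 fold change −1.65 ± 0.28, adjusted p-value = 0.00162). The difference of Gabrb2 turned to 0.10 with the neuronal scaling, and the call was lost. Gabrb1 had few counts, with 45 to 60 counts in the iRGC libraries and 88 to 203 in the cRGC libraries. It was called lower (log2 fold change −1.53 ± 0.50, adjusted p-value = 0.0377), but not without cRGC replicate 2 (−1.12, adjusted p-value = 0.243).

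The remaining classes set where GABA-A receptors sit and how they are modulated. Gabrg3 was at 1.03, 0.583 and 0.882 CPM per kilobase in iRGCs and 1.74, 2.42 and 1.90 in cRGCs, and this gamma subunit gene was lower in iRGCs without overlap (log2 fold change −1.28 ± 0.25, adjusted p-value = 0.00377). Its difference was 0.57 with the neuronal scaling, and it was not called there. Gabre went the other way. This gene encodes the epsilon subunit, which can take the place of gamma and yields receptors that respond little to benzodiazepines. Its level was 1.47, 1.96 and 1.16 CPM per kilobase in iRGCs and 0.487, 0.291 and 0.320 in cRGCs, with every iRGC library above every cRGC library (log2 fold change 2.06 ± 0.42, adjusted p-value = 0.00442). Gabre was called higher under every alternative that was run, including the scaling to the neuronal list, with adjusted p-values up to 0.0267.

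Gabrg1 had 0 to 7 counts in the iRGC libraries and 15 to 30 in the cRGC libraries. It did not overlap but was not called (−3.01 ± 1.42, adjusted p-value = 0.128), although DESeq2 called it (adjusted p-value = 0.0745). Its difference was −4.49 without iRGC replicate 3 and −2.44 without iRGC replicate 1, not called in either. The pi subunit gene Gabrp (0 to 34 counts per library), the theta subunit gene Gabrq (39 to 113) and the rho subunit genes Gabrr1 (0 to 39) and Gabrr2 (7 to 48) all overlapped between the populations and were not called. Gabrd, whose delta subunit marks extrasynaptic receptors, and Gabrr3 were not tested, with at most 14 and 8 counts in a library. The rho subunits are known for the GABA-C receptors of bipolar cells.

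**Figure D2:**
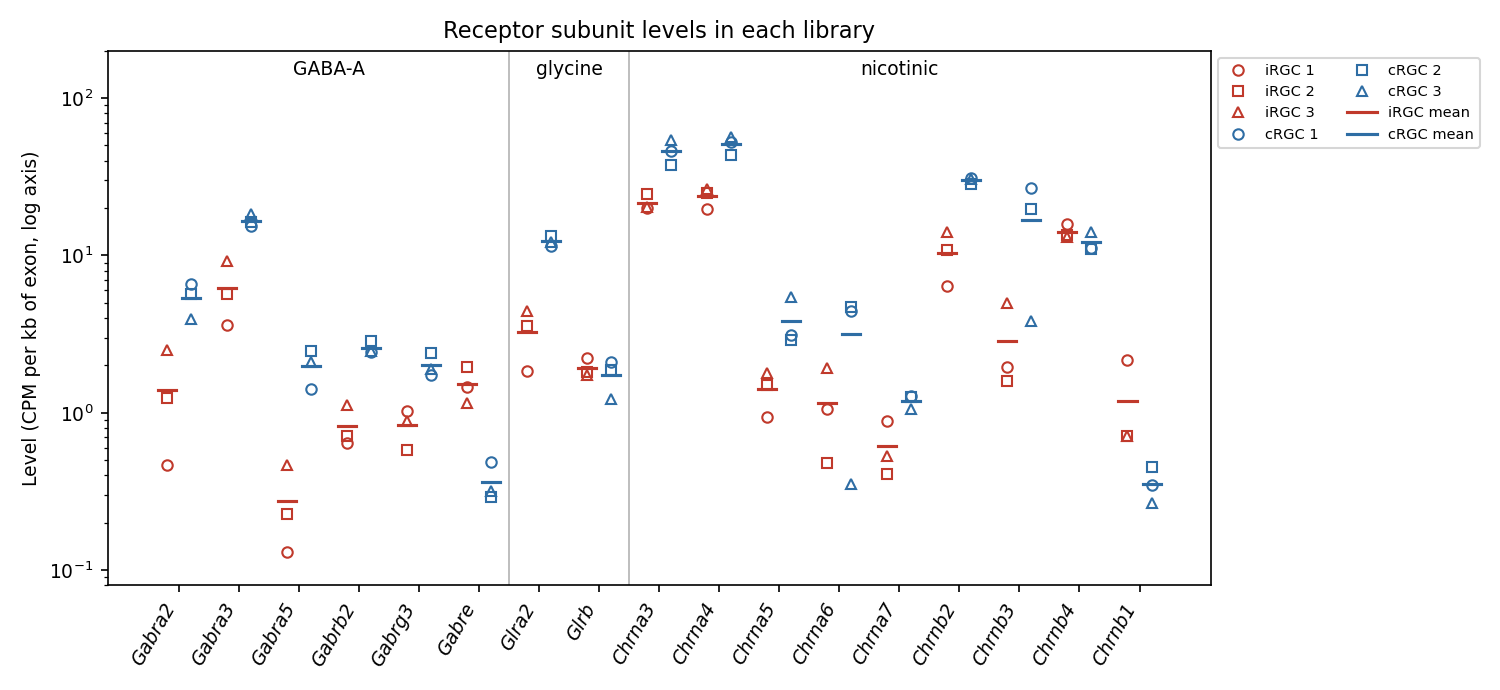
Level in CPM per kilobase of exon (logarithmic vertical axis) of 17 subunits with a mean of at least 1 in either population, in each of 3 iRGC libraries (red) and 3 cRGC libraries (blue); horizontal bars are population means. Chrna4, Chrna3 and Chrnb2 lead in cRGCs, while Gabre and Chrnb1 are higher in every iRGC library than in any cRGC library. Chrnb4, Glrb, Chrnb3 and Chrna6 overlap.

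A share of a subunit in its class is taken within a library, so it does not depend on the scaling between libraries. Gabra3 made up 74.9% ± 2.94 of the alpha subunit level in iRGCs and 67.6% ± 5.61 in cRGCs, with overlap. Gabra2 followed with 15.3% ± 4.83 and 22.0% ± 5.96, also with overlap. Gabra5 held 3.15% ± 0.436 and 8.07% ± 1.92 (SD, n = 3 each), and here the populations did not overlap. In the class of the gamma, delta, epsilon, pi and theta subunits, Gabre held 19.6%, 23.1% and 9.26% of the level in iRGC replicates 1 to 3 and 2.20%, 1.16% and 1.43% in the cRGC replicates. The shares of Gabra5 and Gabre each gave an exact permutation p of 0.1 (0.356 after adjustment over the 32 shares computed), the smallest that 3 libraries against 3 can give, so no share could pass a threshold of 0.1 and only the lack of overlap can be read from them.

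**Figure D3:**
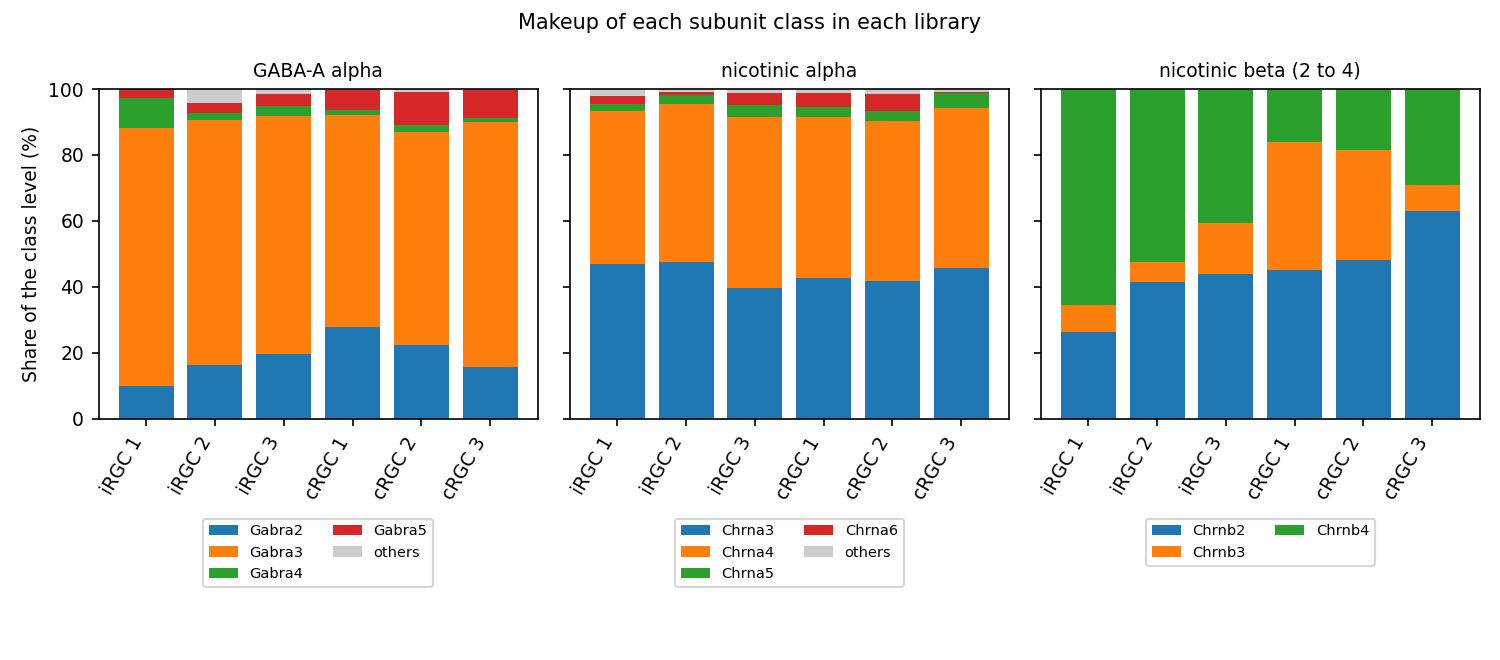
Share of each subunit in the level of its class (vertical axis, percent of CPM per kilobase) in the 6 libraries, for 3 subunit classes; grey stands for the other subunits of the class. Chrnb4 (green in the third panel) takes 40.6% to 65.5% of its class in iRGCs and 16.1% to 29.2% in cRGCs.

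GABA-A subunit genes lie in clusters, and neighbours on the X chromosome did not share a direction. There, Gabre, Gabra3 and Gabrq lie within chrX:72255999-72842602 (GRCm38). Gabre was higher in iRGCs, Gabra3 was lower and Gabrq was not called. With the neuronal scaling the difference of Gabra3 turned to 0.28 and Gabrq was called higher (1.49), while Gabre stayed higher (3.94). On chromosome 5, Gabra2 and Gabrb1 of the cluster of Gabrg1, Gabra2, Gabra4 and Gabrb1 (chr5:70751047-72149037) were called lower, and with the neuronal scaling they were at −0.33 and 0.34 and not called.

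Of the glycine receptor subunits, only Glra2 and Glrb were tested. Glra2, the alpha subunit of embryonic glycine receptors, was at 1.84, 3.54 and 4.45 CPM per kilobase in iRGCs and 11.5, 13.4 and 12.3 in cRGCs. The populations were far apart (log2 fold change −1.92 ± 0.30, adjusted p-value = 0.00107, edgeR). Glrb was at 2.24, 1.83 and 1.73 CPM per kilobase in iRGCs and 2.11, 1.87 and 1.23 in cRGCs. Its populations overlapped, and it was not called (0.15 ± 0.29, adjusted p-value = 0.722). With the neuronal scaling Glra2 was not called (−0.19), and Glrb was called higher (2.03). The level of Glra2 was therefore 82.1%, 194% and 257% of that of Glrb in iRGC replicates 1 to 3, but 543%, 717% and 994% in the cRGC replicates (exact permutation test of this ratio, p = 0.1, adjusted over 7 ratios to 0.14, chosen after the values were seen). This ratio is free of the scaling between libraries. Glra1, the alpha subunit of the adult spinal cord, had at most 10 counts in a library, Glra3 at most 10 and Glra4 at most 2, so that Glra2 held 97.8% to 100% of the alpha level in every library.

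Nicotinic alpha subunits are defined by adjacent cysteines in the loop that closes over the acetylcholine binding site. The codons of this pair are shown so that the alpha subunits found in the retina can be compared at the site. In the longest coding sequence of each gene (GENCODE M21), all 9 Chrna genes held exactly 1 adjacent pair. Of the other nicotinic subunits, Chrnb2 and Chrne also held 1 pair each, so the count of pairs alone did not separate the classes, and Chrnb1, Chrnb3, Chrnb4, Chrnd and Chrng held none. The codons are in capitals, with 7 codons on each side, read from the transcripts on the coding strand.
Chrna3: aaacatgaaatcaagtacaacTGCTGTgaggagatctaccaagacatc
Chrna6: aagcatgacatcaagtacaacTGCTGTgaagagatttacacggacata
Chrna4: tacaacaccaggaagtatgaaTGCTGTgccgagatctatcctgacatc
Chrna7: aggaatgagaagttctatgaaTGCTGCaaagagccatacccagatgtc
Chrna5: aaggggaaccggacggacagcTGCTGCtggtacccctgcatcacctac
In GRCm38 the pairs lie in coding exons at chr9:55015854-55015859 (Chrna3, minus strand), chr8:27407179-27407184 (Chrna6, minus strand), chr2:181029278-181029283 (Chrna4, minus strand), chr7:63106158-63106163 (Chrna7, minus strand) and chr9:55004617-55004622 (Chrna5, plus strand).

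Chrna4 and Chrna3 were the most abundant of all members. Chrna4, which pairs with Chrnb2 in the main nicotinic receptor of the brain, was at 19.7, 24.9 and 26.6 CPM per kilobase in iRGCs and 52.4, 43.7 and 56.9 in cRGCs (log2 fold change −1.10 ± 0.15, adjusted p-value = 5.48e-04, edgeR). Chrna3, the alpha subunit of the receptors of autonomic ganglia, was at 20.0, 24.7 and 20.3 CPM per kilobase in iRGCs and 45.9, 37.6 and 53.9 in cRGCs (−1.08 ± 0.15, adjusted p-value = 7.00e-04). Both genes were without overlap between the populations. Within each population the ranges of Chrna4 and Chrna3 overlapped, but in every cRGC library Chrna4 was above Chrna3. With the neuronal scaling they were called higher in iRGCs (0.70 for Chrna4 and 0.77 for Chrna3, adjusted p-values 0.0185 and 0.0191). Within the class of neuronal alpha subunits, Chrna4 held 48.7% ± 2.98 in iRGCs and 48.6% ± 0.228 in cRGCs and Chrna3 held 44.7% ± 4.41 and 43.4% ± 2.14, with overlap in both.

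Chrna5, an accessory subunit that joins receptors built on Chrna3 or Chrna4, was at 0.947, 1.51 and 1.79 CPM per kilobase in iRGCs and 3.12, 2.89 and 5.42 in cRGCs. The populations did not overlap, and cRGC replicate 3 was the highest (log2 fold change −1.43 ± 0.37, adjusted p-value = 0.0132). Chrna7, which forms receptors of 1 kind of subunit, was at 0.892, 0.412 and 0.532 CPM per kilobase in iRGCs and 1.27, 1.26 and 1.05 in cRGCs. Every iRGC library was below every cRGC library, but the gene was not called (−0.96 ± 0.44, adjusted p-value = 0.115). In edgeR it was called lower without iRGC replicate 1 (−1.34, adjusted p-value = 0.0289). With all 6 libraries it was called lower by DESeq2, by limma voom and by edgeR among genes with at least 10 counts in every library (adjusted p-values 0.0878, 0.0717 and 0.0783).

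The beta subunits behaved unequally. Chrnb2 was at 6.41, 10.8 and 14.1 CPM per kilobase in iRGCs and 31.3, 28.6 and 30.6 in cRGCs, which were close to each other and far above all iRGC libraries (log2 fold change −1.53 ± 0.24, adjusted p-value = 0.00123). With the neuronal scaling its difference was 0.21 and it was not called (adjusted p-value = 0.464). This gene shares 16.3% of its exonic bases with Adar on the opposite strand, and the strand setting of the counting is not given in the sources used here. Chrnb4, the partner of Chrna3 in ganglionic receptors, was at 15.9, 13.6 and 13.1 CPM per kilobase in iRGCs and 11.2, 11.0 and 14.2 in cRGCs. Its populations overlapped, and it was not called (0.23 ± 0.15, adjusted p-value = 0.268). With library totals alone in place of TMM (0.44, adjusted p-value = 0.0464) and with the neuronal scaling (2.101, adjusted p-value = 1.08e-05), Chrnb4 was called higher in iRGCs. Its share of the level of Chrnb2, Chrnb3 and Chrnb4 together was 52.8% ± 12.4 in iRGCs and 21.3% ± 6.94 in cRGCs, while that of Chrnb2 was 37.3% ± 9.46 and 52.1% ± 9.50. Neither share overlapped between the populations (exact permutation test, p = 0.1 each, 0.356 after adjustment over 32 shares).

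Chrnb4, Chrna3 and Chrna5 lie side by side at chr9:54980880-55048779, a stretch of 67900 base pairs (bp) in which Chrna5 and Chrna3 converge, 2331 bp apart, and Chrna3 and Chrnb4 run in the same direction with 1591 bp between them. Within this cluster, Chrna3 and Chrna5 were lower in iRGCs (0.77 and 0.34 with the neuronal scaling) and Chrnb4 was not. The level of Chrnb4 was 79.2%, 55.1% and 64.3% of that of Chrna3 in iRGC replicates 1 to 3 and 24.3%, 29.2% and 26.3% in the cRGC replicates. The populations were well apart in this ratio, which does not depend on the scaling (exact permutation test, p = 0.1, adjusted over 7 ratios to 0.14, chosen after the values were seen). The ratio of Chrna5 to Chrna3 was 6.55% ± 2.07 in iRGCs and 8.18% ± 1.68 in cRGCs, with overlap.

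The promoters of the cluster are shown because their genes did not change alike. Each sequence is the 250 bases before the RefSeq start (GRCm38.p6), 5′ to 3′ on the gene's own strand, with capitals for GGGCGG (the GC box bound by Sp factors, searched on both strands, so also CCGCCC) and CAGCTG (an E-box, the same on both strands). The motifs can overlap each other by 1 base.
Chrna3, chr9:55026563-55026812, minus strand: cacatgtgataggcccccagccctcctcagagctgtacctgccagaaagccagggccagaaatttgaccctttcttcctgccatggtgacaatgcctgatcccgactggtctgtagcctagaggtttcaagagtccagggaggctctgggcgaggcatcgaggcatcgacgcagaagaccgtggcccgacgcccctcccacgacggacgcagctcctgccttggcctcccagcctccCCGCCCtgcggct
Chrnb4, chr9:55048545-55048794, minus strand: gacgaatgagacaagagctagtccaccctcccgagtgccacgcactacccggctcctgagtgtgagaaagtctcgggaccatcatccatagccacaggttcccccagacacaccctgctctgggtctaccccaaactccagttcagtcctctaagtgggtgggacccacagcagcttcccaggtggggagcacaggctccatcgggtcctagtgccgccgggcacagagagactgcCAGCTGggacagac
Chrna5, chr9:54980630-54980879, plus strand: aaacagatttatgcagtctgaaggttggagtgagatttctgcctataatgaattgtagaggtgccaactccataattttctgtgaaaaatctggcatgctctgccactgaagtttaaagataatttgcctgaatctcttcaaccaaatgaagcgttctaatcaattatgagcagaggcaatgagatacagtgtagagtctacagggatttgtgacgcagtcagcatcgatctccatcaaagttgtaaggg
The RefSeq start of Chrnb4 lies 235 bp inside the GENCODE gene, so most of its window is within the gene span given above, whereas the starts of Chrna3 and Chrna5 are the same in both annotations. The window of Chrna3 held 1 GC box, on the opposite strand, 8 to 13 bases before the start, and that of Chrnb4 held 1 E-box 9 to 14 bases before the start. The window of Chrna5 held neither and was 40.0% G and C, against 63.2% and 61.2% in the windows of Chrna3 and Chrnb4. Of the 32851 windows in the RefSeq table, 32.7% held the GC box and 13.0% the E-box. The 31 members with an entry were counted by gene, and a gene with several windows counted if any of them held the motif. By that count, 15 and 7 members held the motifs. Windows and genes are unlike units, so these counts cannot be set against the shares of all windows.

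Chrna6 and Chrnb3 are subunits that join in receptors on RGC axons and on dopamine neurons. Their genes form another nicotinic cluster, at chr8:27368711-27413944 with 3481 bp between them. In both, cRGC replicate 3 was far below the other cRGC replicates. Chrnb3 was at 26.8 and 19.7 CPM per kilobase in cRGC replicates 1 and 2 but at 3.86 in replicate 3, and at 1.96, 1.60 and 4.97 in iRGCs. The populations therefore overlapped, although Chrnb3 was called lower in iRGCs with the largest fold change of the called nicotinic subunits (log2 fold change −2.56 ± 0.67, adjusted p-value = 0.0143, and −3.25 without iRGC replicate 3). It was also the member called lower with the neuronal scaling (−0.90, adjusted p-value = 0.0949). Chrna6 was at 4.43 and 4.71 CPM per kilobase in cRGC replicates 1 and 2, at 0.355 in replicate 3 and at 1.05, 0.479 and 1.94 in iRGCs. It was not called (−1.45 ± 0.84, adjusted p-value = 0.208), but it was without cRGC replicate 3 (−1.98, adjusted p-value = 0.0272). Its difference was −2.06 without iRGC replicate 3 and −1.03 without cRGC replicate 2, not called in either (adjusted p-values 0.129 and 0.462).

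This drop in cRGC replicate 3 was rare. Of 10921 genes with at least 5 CPM in cRGC replicates 1 and 2, only 7 (0.0641%) were under 25% of the lower of them in replicate 3, and 2 of these 7 were among the 16 members that reached 5 CPM in both. Chrna6 was at 8.02% and Chrnb3 at 19.5% of the lower replicate. The others were Thy1, a surface glycoprotein gene of RGCs (8.16%), 1110032F04Rik (11.8%), the copine gene Cpne4 (16.1%), the prostaglandin-degrading enzyme gene Hpgd (20.99%) and the forkhead factor gene Foxp2 (24.0%). Chrna3 (53.9) and Chrna4 (56.9 CPM per kilobase) were by contrast highest in cRGC replicate 3. What set this library apart in these genes was not tested.

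**Figure D4:**
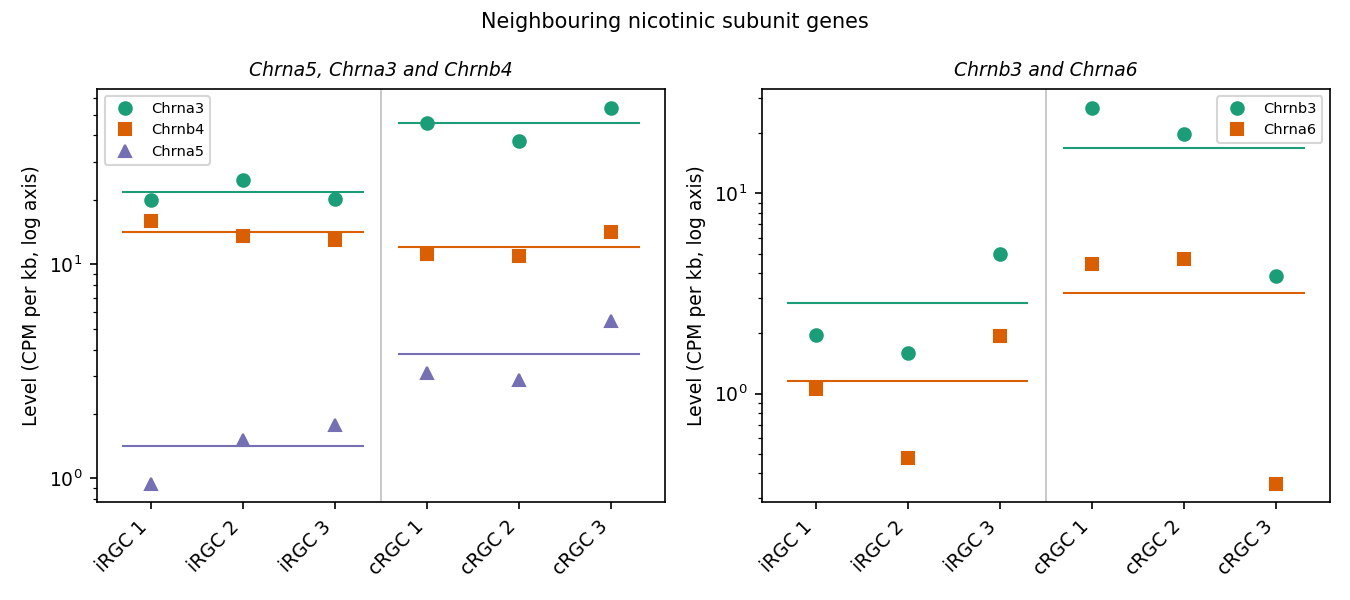
Level in CPM per kilobase of exon (logarithmic vertical axes) of neighbouring nicotinic subunit genes in each library, with population means as lines; the left panel shows Chrna3, Chrnb4 and Chrna5, and the right panel Chrnb3 and Chrna6. Chrnb4 stays between 11.0 and 15.9 in all 6 libraries while Chrna3 is 20.0 to 24.7 in iRGCs and 37.6 to 53.9 in cRGCs, and both genes of the right panel are low in cRGC replicate 3.

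The muscle-type subunits were nearly undetected apart from Chrnb1. This beta subunit of the neuromuscular receptor was at 2.16, 0.708 and 0.710 CPM per kilobase in iRGCs and 0.349, 0.450 and 0.268 in cRGCs. All iRGC libraries were above all cRGC libraries, with iRGC replicate 1 far above the others (log2 fold change 1.74 ± 0.72, adjusted p-value = 0.0860). The call was lost without iRGC replicate 1 (0.99, adjusted p-value = 0.301) and without any single cRGC library (adjusted p-values 0.137 to 0.211). It was also lost with limma voom, with no filter on low counts and with a replicate block (adjusted p-values 0.159, 0.171 and 0.196). The other muscle-type genes gave no value to compare. Chrna1 had 0 to 9 counts, Chrne had 2 counts in 1 library, and Chrnd and Chrng, as well as the cochlear hair cell subunit Chrna9, had no count in any library, which allows up to 0.0927 to 0.115 CPM (3 counts in a library, counting error only). Chrna2 had 4 counts in 1 library, and Chrna10, which shares 39.0% of its exonic bases with Art1 on the opposite strand, had 11 counts in 1 library. The muscle genes Myod1 and Ckm were at 0 in all cRGC libraries and Myf5 in all libraries, and 1 of 6 tested skeletal muscle genes was lower in iRGCs while 5 were not called.

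Genes that work with these receptors were followed in lists. Of 31 tested genes of the inhibitory synapse and of chloride transport, 20 were lower in iRGCs, 4 were higher and 7 were not called, with a median log2 fold change of −0.81, against 23.1% lower and 23.3% higher among all tested genes. With the neuronal scaling, none was called lower and 21 were called higher, against 78.0% of all tested genes. Gabbr1, a subunit of the metabotropic GABA-B receptor, had the highest CPM of the list and was at 226, 234 and 341 CPM in iRGCs and 768, 695 and 790 CPM in cRGCs (−1.49 ± 0.17, adjusted p-value = 2.79e-04, edgeR). Its partner Gabbr2 had the largest difference of the list (−1.96 ± 0.22). Shisa7, which encodes an auxiliary protein of GABA-A receptors, was at 26.5, 19.5 and 38.7 CPM in iRGCs and 123, 102 and 88.6 CPM in cRGCs (−1.88 ± 0.24). The adhesion proteins Nlgn2 (−0.99 ± 0.13) and Nlgn3 (−1.79 ± 0.21), found at inhibitory synapses, were lower too. Nlgn3 shares 41.2% of its exonic bases with Gm21986 on the same strand. Gabarap, a trafficking protein that binds gamma subunits, was also lower (−0.37 ± 0.11). Its call was lost without cRGC replicate 3 (−0.29, adjusted p-value = 0.105) and with library totals alone (−0.17, adjusted p-value = 0.222). Under the neuronal scaling, the values of Gabbr1, Nlgn2, Nlgn3 and Gabarap turned positive (0.29, 0.82, 0.09 and 1.46), and those of Gabbr2 and Shisa7 were −0.21 and −0.11 and not called.

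The 4 higher genes of this list were of other kinds. Slc12a2, the chloride importer, was at 90.6, 95.9 and 72.4 CPM in iRGCs and 61.0, 66.5 and 54.9 CPM in cRGCs (0.51 ± 0.14, adjusted p-value = 0.0194), whereas the exporter gene Slc12a5 was at 23.8, 18.2 and 31.5 CPM against 62.6, 74.2 and 53.1 CPM (−1.37 ± 0.22, adjusted p-value = 0.00120). Both were without overlap, and the fold change of Slc12a5 turned to 0.42 with the neuronal scaling. Slc32a1, the vesicular transporter of GABA and glycine, Gad2, an enzyme of GABA synthesis, and Slc6a9, a glycine transporter, were the other 3 (1.46 ± 0.41, 0.55 ± 0.12 and 1.66 ± 0.37). These 3 are also amacrine cell markers. These genes, like Slc12a2 and Slc12a5, were named after their values were seen.

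Of 16 tested genes of cholinergic signalling, 8 were lower, 3 were higher and 5 were not called, with a median of −1.07 (the same background applies). With the neuronal scaling, none of them was called lower and 9 were called higher, against 78.0% of all tested genes. Agrn, which encodes the proteoglycan that gathers acetylcholine receptors at the muscle endplate, was at 704, 834 and 809 CPM in iRGCs and 1708, 1479 and 1794 CPM in cRGCs (−1.09 ± 0.12, adjusted p-value = 2.58e-04). Ly6h, a GPI-anchored protein that holds back nicotinic receptors, was at 17.8, 31.6 and 59.4 CPM in iRGCs and 150, 166 and 154 CPM in cRGCs (−2.11 ± 0.36, adjusted p-value = 0.00176). The nicotinic chaperone Ric3 was lower as well (−0.65 ± 0.12), and with the neuronal scaling both Agrn and Ric3 turned to higher values (0.75 and 1.17), while Ly6h (−0.44) was not called. Lynx1, another toxin-like protein that binds nicotinic receptors, and the cholinesterase Bche went the other way. Lynx1 was at 15.8, 13.5 and 8.99 CPM in iRGCs and 3.46, 3.18 and 1.16 CPM in cRGCs (2.30 ± 0.45, adjusted p-value = 0.00349), and Bche at 11.9, 15.6 and 8.01 CPM against 0.615, 1.97 and 4.07 CPM (2.41 ± 0.61, adjusted p-value = 0.0121, and 3.19 without cRGC replicate 3). Neither gene overlapped between the populations.

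Markers of other cells were also compared between the populations. Of the 11 amacrine cell genes tested, higher levels were called in iRGCs for 9, with summed levels of 432, 378 and 535 CPM in iRGCs and 155, 203 and 137 CPM in cRGCs, the highest per kilobase being Prdm13 in iRGCs and Gad2 in cRGCs. Of 7 photoreceptor precursor genes, 6 were higher and 1 lower (922, 706 and 804 CPM against 183, 289 and 222 CPM, led per kilobase by Otx2 in iRGCs and by Rxrg, the gene called lower, in cRGCs). All 6 tested endothelial genes were higher (468, 699 and 434 CPM against 87.7, 108 and 70.5 CPM). Kdr alone was at 366, 320 and 418 CPM against 83.7, 103 and 67.6 CPM, most of every sum but that of iRGC replicate 2. Cdh5 and Tie1 were at 0 in every cRGC library, and Cdh5 was at 15.2, 81.3 and 0.158 CPM in iRGCs. Of 6 tested mural and fibroblast genes, 4 were higher (143, 273 and 112 CPM against 22.8, 35.1 and 25.6 CPM). Notch3 alone was at 113, 117 and 83.5 CPM against 17.1, 26.7 and 18.6 CPM, again most of every sum but that of iRGC replicate 2. Of 7 microglia and blood genes, 4 were higher (23.1, 92.0 and 23.7 CPM against 0.654, 6.70 and 1.65 CPM). Without iRGC replicate 2, which had the most RNA of both these lists and of the endothelial list, 2 microglia and blood genes (without Hbb-bs and Hba-a1) and 4 endothelial genes (without Pecam1 and Esam) were called higher. Of 6 horizontal cell genes, 1 was higher, 1 lower and 4 not called (268, 286 and 237 CPM against 247, 260 and 414 CPM), and 3 were lower without iRGC replicate 2 or without cRGC replicate 1. The retinal progenitor genes summed to 9737, 8461 and 7396 CPM against 850.2, 2201 and 1415 CPM, led by Ccnd1. Of the 14 members lower in iRGCs, 11 had their lowest iRGC level in replicate 1, and 11 had their highest in replicate 3. Of the iRGC libraries, replicate 1 had the least neuronal and the most progenitor RNA, and replicate 3 had the most neuronal RNA. No such counts were made over all tested genes, so this order cannot be called particular to the members. The part of these cells in the differences of the receptor genes was not tested.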

How the data were processed

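The data were 6 RNA-seq libraries of cells sorted from mouse retinas, 3 for each population. ATAC-seq (13 samples) is not analysed here. The authors mapped the reads to mm10 with HISAT2 (2.1.0), assigned them to Ensembl genes of GRCm38 with HTSeq (0.11.1) and deposited raw counts per gene, 1 table per library. Of 47069 genes, 46574 matched GENCODE M21, which gave symbols, positions and exon lengths. The 5 tally lines that name no gene stayed out of all totals, among them the reads that overlapped no gene (12.3% to 23.2% of uniquely aligned reads).

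Counts were tested with edgeR 4.0.16 in R 4.3.3 (filterByExpr, TMM factors, quasi-likelihood test without a block, Benjamini-Hochberg adjustment over 15941 genes, called at an adjusted p-value under 0.1). Each SE was obtained from the log2 fold change and its F statistic. CPM used TMM-scaled library sizes, and levels per kilobase used the union of exons. Of the members, 8 share exonic bases with other genes. Summed levels, shares and ratios were compared by exact permutation tests (scipy 1.17.1). With a biological coefficient of variation of 36.3%, small changes at few counts were not detectable. In a simulation of this comparison with 15406 genes, edgeR made 197 calls, with 12.7% of them false. There it found 74.6% of the genes changed 2-fold and 91.7% of those changed at least 4-fold. The measured data gave far more calls (7395 of 15941 tested genes), and the simulated rates were not split by count. These rates therefore give no recovery for members with few counts. Promoters came from RefSeq (31 members matched) and coding sequences from GENCODE M21.

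Of the members, 3 are counted in all totals and not reported here by name. All others are named, those with a mean of at least 1 CPM per kilobase in a population by library. From the lists of the inhibitory synapse and of cholinergic signalling, the 3 tested genes with the highest mean CPM and the 3 called genes with the largest changes were named. The other lists were general neuronal genes, RGCs, retinal progenitors, amacrine cells, horizontal cells, photoreceptor precursors, endothelial cells, mural cells and fibroblasts, skeletal muscle, and microglia and blood. Members and lists were chosen with earlier results of these data known. Alternatives were DESeq2 size factors, upper quartile factors, library totals or the neuronal list in place of TMM, DESeq2 1.42.0, limma voom (3.58.1), other count filters, stricter thresholds, a replicate block, each library left out, and other gene lengths.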

Additional observations from a re-analysis of the deposited data

How the results depend on the processing

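Among the settings run, the count of lower members moved by over 1.5 times with the scaling to the neuronal list only. With the libraries scaled to the general neuronal list, all of whose genes were lower in iRGCs, the median log2 fold change of all tested genes was 1.83 (0.20 with library totals), 66 tested genes were lower and 12440 higher, and 1 member was lower and 8 higher. Summed levels turned to 0.39 (GABA-A), 0.36 (glycine) and 0.73 (nicotinic), and the fold changes of these members turned positive: Chrna3 0.77, Chrna4 0.70, Chrna5 0.34, Chrna6 0.24, Chrna7 0.95, Chrnb2 0.21, Gabra3 0.28, Gabra4 1.42, Gabrb1 0.34, Gabrb2 0.10, Gabrg3 0.57, Gabrq 1.49 and Gabrr2 1.51. So did Agrn 0.75, Gabarap 1.46, Gabbr1 0.29, Nlgn2 0.82, Nlgn3 0.086 and Ric3 1.17. In all other settings, 13 to 16 members were lower. The higher members were 2, but 3 with library totals alone (Chrnb4 was added) and 1 (Gabre, without Chrnb1) with limma voom, with no filter on low counts, with the replicate block and at an adjusted p-value under 0.05, and 1 to 2 with each library left out. At an absolute log2 fold change above 1, 1758 tested genes were lower and 1930 higher. The nicotinic sum was −0.89 with library totals. With a library left out, Gabrq ranged from −0.59 to 0.030, Gabrr2 from −0.88 to 0.24 and Glrb from −0.031 to 0.31. Same-numbered libraries did not deviate together (correlations of −0.012 to −0.055 over 15941 genes), and the block changed the call of 1 member, Chrnb1. All 88 alternative values of 11 larger shares moved by less than the spread between replicates.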
